A study of Bos taurus with 16 samples.

Results

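The genes described here encode the nuclear subunits of mitochondrial oxidative phosphorylation, measured in endometrial and blood CD14+ cells of pregnant cows. A probe entered where its gene name, or the symbol in brackets in its description, began with NDUFA, NDUFB, NDUFC, NDUFS, NDUFV, UQCR, COX4, COX5, COX6, COX7, COX8 or ATP5, or was SDHA, SDHB, SDHC or SDHD. This gave 75 genes of the 20443 gene names on the array, each with 1 probe. There were 34 genes of complex I, 4 of complex II, 6 of complex III, 14 of complex IV and 15 of complex V. The other 2, COX7A2L and ATP5S, encode proteins that are not counted as subunits. The rule uses names only, and no measured value.

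Oxidative phosphorylation takes place in the inner mitochondrial membrane. Complex I (NADH dehydrogenase) and complex II (succinate dehydrogenase) pass electrons to ubiquinone, complex III passes them to cytochrome c, and complex IV (cytochrome c oxidase) passes them to oxygen. Complex V (ATP synthase) makes ATP from the proton gradient that complexes I, III and IV build. In macrophages the balance between this pathway and glycolysis is known to shift with the state of activation.

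The cells came from 4 pregnant cows collected at an abattoir, without an experimental treatment, at day 164 (animal 1), day 239 (animal 2), day 242 (animal 3) and day 248 (animal 4) of pregnancy. From each animal, CD14+ cells were sorted from dispersed endometrium and from peripheral blood mononuclear cells, and their amplified RNA was hybridized together on 2-colour Agilent bovine arrays, with 2 arrays an animal and 8 in all. In animals 1, 2 and 4 the dyes were exchanged between the 2 arrays. In animal 3 the endometrium carried Cy5 and the blood Cy3 on both arrays, so a dye effect does not cancel there. Parity, breed and age were not used here, and the animals are the replicates (n = 4).

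In the 16 channels, 65.2% to 82.9% of the spots were well above background. The replicates are 4 animals, and their number limits the precision. The sort was checked against marker genes. CD14 was well above background in all 16 channels, with log2 ratios of endometrium over blood of -2.08, 0.11, 0.51 and 0.13 in animals 1 to 4. LYZ was well above background in 0 of the 16 channels. The 7 tested monocyte and macrophage genes had a median ratio of 1.37 (1.19, 0.09, 2.48 and 2.3 in animals 1 to 4). Of these, 5 had a mean above 0 and 2 below. At an unadjusted p of at most 0.05 by limma, 4 were higher in the endometrium (57.1%, where 6.58% of all probes were). Other cell types were present in the RNA: 5 of 6 trophoblast genes were called higher in the endometrium, and the summed level of the 6 (log2 of the sum of normalized intensities) was 13.76 to 15.53 in the endometrium and 9.53 to 10.61 in blood. The summed level of 7 epithelial genes was 11.65 to 15.44 against 9.58 to 11.28, and that of 6 stromal genes 8.86 to 16.02 against 8.67 to 10.39. All 6 trophoblast probes, and 4 of 7 epithelial but 0 of 6 stromal probes, were well above background in every channel. Genes of T and NK cells summed to 13.96 to 16.14 in the endometrium and 11.33 to 14.61 in blood. B cell genes summed to 11.60 to 13.98 and 12.65 to 15.20, granulocyte genes to 8.57 to 12.64 and 10.61 to 16.39, and monocyte and macrophage genes to 11.34 to 16.21 and 10.72 to 16.14. The part of these cells in the values below was not tested. In such mixed samples, more cells of a type and more RNA per cell cannot be told apart.

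The subunit genes had a median log2 ratio of 0.03 between the cells of both tissues, and none passed the test. A p that misses the threshold does not show equal levels: for 35 of the 75 genes the 95% interval of the log2 ratio reached beyond a 2-fold difference, its median half-width was 0.65, and the lowest log2 ratio among the probes that passed was 3.17. All 75 were tested, and 71 were well above background in all 16 channels (of all tested probes, 67.2% were). The exceptions were ATP5J2, NDUFA4L2, COX6A2 and ATP5S. By limma against 0 over the 4 animals, 0 of 75 genes had an adjusted p of at most 0.05 with a fold over 2, where 0.0661% of the 16653 probes tested did (11 probes, all higher in the endometrium). The lowest adjusted p of limma in the group was 0.262. At an unadjusted p of at most 0.05, 4 genes (5.33%) were higher in the endometrium, where 6.58% of all probes were, and 5 genes (6.67%) were higher in blood, where 8.64% were. These shares are near those of all probes, and the counts changed with the processing, as given further below. In a fit with dye as a term and the animals as random effects, 1 gene (NDUFA8) was called, where 4.76% of all probes were.

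In animals 1 to 4 the median log2 ratio of the 75 genes was -0.19, 0.31, -0.13 and 0.05, so its sign differed between animals, with an SD of 0.22. Over all probes tested the median was -0.02. Of the 75 genes, 40 had a mean ratio above 0 and 35 below. The mean difference was at most 2-fold for 70 genes (93.3%), as it was for 84.2% of all probes.

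**Figure D1:**
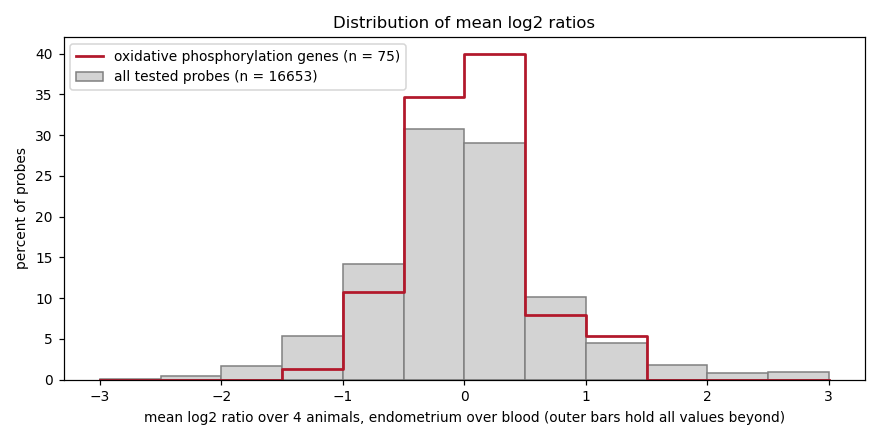
Distribution of the mean log2 ratio of endometrium over blood (horizontal axis, in steps of 0.5) as percent of probes (vertical axis), for the 75 oxidative phosphorylation genes (red line) and for all 16653 tested probes (gray bars). Of the genes, 34.7% lay between -0.5 and 0 and 40.0% between 0 and 0.5, as against 30.8% and 29.0% of all probes, and none lay beyond -1.5 or 1.5.

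Between animals the genes spread less than most probes. The median SD over animals of the log2 ratio was 0.45 for the 75 genes, 0.68 for all probes tested and 0.74 for probes well above background in all channels. The low value was not particular to the group. It was 0.41 for cytosolic ribosomal proteins and 0.49 for genes around the citric acid cycle, but 0.59 for glycolysis genes and 0.69 for mitochondrial ribosomal proteins. The 2 arrays of an animal differed in the ratio by a median of 0.10, and at most by 0.60 (ATP5G3), as against a median of 0.11 for all probes. The spread was therefore mostly between animals and not between the 2 arrays of an animal. Animal 3 gave the ratio farthest from 0 for 43 of the 75 genes (57.3%), and it did so for 46.2% of all probes. The 6 trophoblast and 7 epithelial genes were all highest in animal 3, in the endometrium and in blood alike. Both tissues of an animal were hybridized to the same 2 arrays, so for such levels the animal and its arrays cannot be told apart. The 5 B cell genes were all highest in its blood, with a median ratio of -3.84 there. Of all probes, 28.6% were highest in animal 3 in the endometrium and 22.2% in blood. The part of these cells in the ratios of animal 3 was not tested. Across the 75 genes the SD of the ratios was 0.43, 0.66, 1.04 and 0.46 in animals 1 to 4, and across all probes it was 1.1, 1.00, 1.49 and 0.71.

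**Figure D2:**
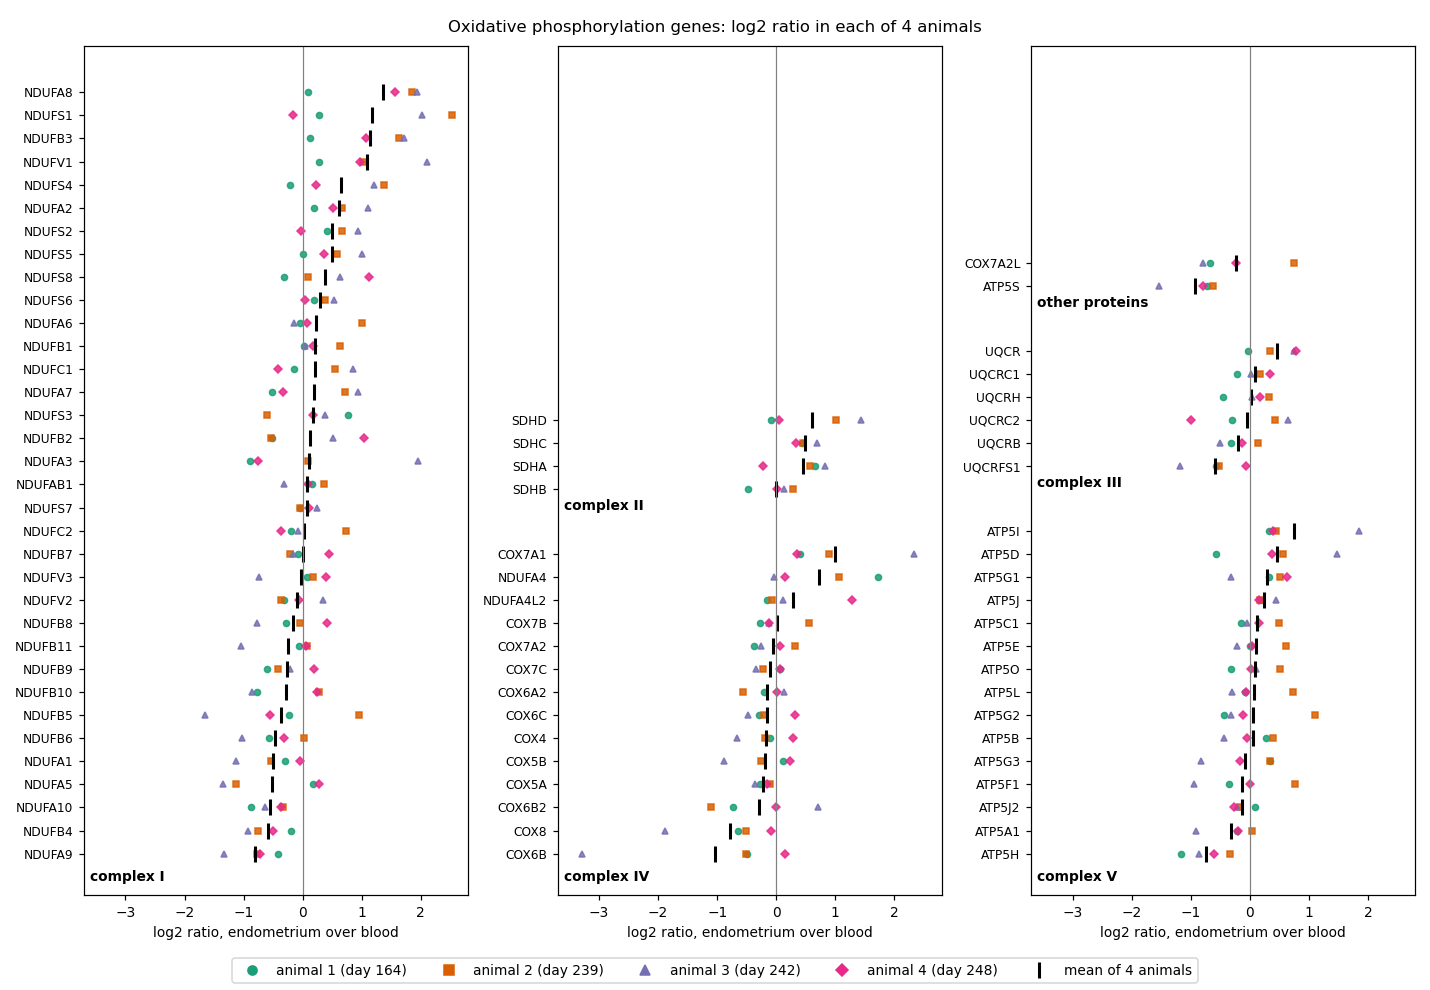
Log2 ratio of endometrium over blood (horizontal axis) for each of the 75 genes (vertical axis, by complex and sorted by mean), with 1 symbol for each of the 4 animals and a black bar for their mean. Most means lie within 1 of 0, and animal 3 (triangles) often lies farthest out, as for COX6B at -3.29 and COX7A1 at 2.34.

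The 60-base probes of 5 genes on which the description below turns (NDUFA8 and COX6B, the highest and lowest mean ratio, and NDUFB3, NDUFV1 and NDUFA9), and of the isoform pair COX7A1 and COX7A2, are shown here by a stretch of 30 bases each, so that the measured transcripts can be told apart. The bases are those given in the files for the array's probes, 5′ to 3′. They are bases 16 to 45 of the probe, except for COX7A1 (10 to 39) and COX7A2 (31 to 60). Capitals mark AATAAA, the usual polyadenylation signal.
NDUFA8: gttaatttatgtgacttggcagttattcta
NDUFB3: atttcttcactgtagcctactcacctgtgt
NDUFV1: tgagcccacggggctggtgtccgtctgtct
NDUFA9: ctttggcggagaatcctgtatatagtgaat
COX6B: agctggacgatggggccagaagctggggcg
COX7A1: cgaacaggcatcAATAAAtgtgctggtttc
COX7A2: ttgtattagctgccaccAATAAAgcagtct

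The probes of COX7A1 and COX7A2 shared no run longer than 7 bases, those of COX6B and COX6B2 none longer than 5, and those of ATP5G1, ATP5G2 and ATP5G3 none longer than 8. AATAAA stood in 24 of the 75 probes (32.0%), as against 11.8% of all 21475 probes on the array. On the other strand, read as TTTATT, it stood in 4 probes (5.33%) and in 3.88% of all probes, and 1 probe of the 75 held both. The GC content was the same, with a median of 43.3% both in the 75 probes and in all. The median log2 ratio was 0.08 for genes whose probe held AATAAA and 0.02 for the others. The files gave no genome position for these probes, and none is stated here.

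Complex I held the largest differences. Of its 34 genes, 20 had a mean ratio above 0 and 14 below, with a median of 0.09 (-0.11, 0.23, 0.15 and 0.09 in animals 1 to 4). At an unadjusted p of at most 0.05, 4 were higher in the endometrium (NDUFA8, NDUFB3, NDUFV1 and NDUFA2) and 3 were higher in blood (NDUFA9, NDUFB4 and NDUFA10). This is 11.8% against 6.58% of all probes for the endometrium and 8.82% against 8.64% for blood, the latter at the background. These were 7 of the 9 genes of the whole group at that level. Ratios of the same sign in 4 of 4 animals were found for 7 genes higher in the endometrium (20.6%; of all probes, 10.2%) and 4 higher in blood (11.8%; of all probes, 14.7%).

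The 7 nuclear core subunits carry the flavin and the iron-sulfur clusters through which electrons pass. Of these, 6 had a mean ratio above 0, with a median of 0.38, whereas the 27 accessory subunits, which surround the core and take part in its assembly, had a median of 0.03 with 14 above and 13 below. The core's median was 0.27, 0.09, 0.64 and 0.10 in animals 1 to 4. No test of this difference was made.

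NDUFV1 encodes the core subunit that binds flavin mononucleotide and oxidizes NADH. Its level, as log2 normalized intensity, was 12.15, 11.85, 13.04 and 11.55 in the endometrium of animals 1 to 4 and 11.88, 10.83, 10.94 and 10.58 in blood. The endometrium was the higher in every animal, but the groups overlapped through the blood of animal 1. The log2 ratio was 1.09 ± 0.34 (SE of limma, moderated over all tested probes, n = 4), a 2.13-fold difference. Its 95% interval was 0.23 to 1.95 on the log2 scale, and limma gave an unadjusted p of 0.0216 and an adjusted p of 0.273. NDUFS1, the largest core subunit, singled out after its values were seen, had ratios of 0.27, 2.53, 2.03 and -0.16, with a mean of 1.17 ± 0.53. Animals 2 and 3 thus carried this difference, and the adjusted p was 0.363. Only NDUFV2, also singled out in this way, had a mean below 0 among the core subunits, at -0.10 ± 0.23, which rounded to 0 with loess only.

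NDUFA8, an accessory subunit on the intermembrane side, had the highest mean ratio of all 75 genes. Its level was 10.23, 10.17, 10.65 and 10.06 in the endometrium and 10.14, 8.32, 8.71 and 8.50 in blood of animals 1 to 4. In the endometrium the 4 animals lay close together, and in blood animal 1 stood above the other three, with a level within the endometrial range. The log2 ratio was 1.36 ± 0.38 (95% interval 0.41 to 2.30), or 2.56-fold, with a limma p of 0.0134 and an adjusted p of 0.262.

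NDUFB3, an accessory subunit of the membrane arm, also had its highest blood level in animal 1, within the endometrial range. Its level was 12.55, 12.57, 12.59 and 11.87 in the endometrium and 12.43, 10.93, 10.88 and 10.79 in blood, with animal 4 below the other three in the endometrium. The ratio was near 0 in animal 1, at 0.13, and 1.64, 1.71 and 1.08 in the others. The mean was 1.14 ± 0.33 (95% interval 0.30 to 1.98), with a limma p of 0.0169 and an adjusted p of 0.267. NDUFA2, also an accessory subunit, was higher in the endometrium in 4 of 4 animals, by 0.20, 0.67, 1.1 and 0.51, with a mean of 0.62 ± 0.24 and a limma p of 0.0461 (adjusted p 0.320).

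NDUFA9, an accessory subunit near the site where ubiquinone binds, had the lowest mean of complex I. Its level was 10.35, 10.12, 10.08 and 10.57 in the endometrium and 10.77, 10.90, 11.41 and 11.30 in blood, so the groups did not overlap. The log2 ratio was -0.81 ± 0.24 (95% interval -1.42 to -0.21), which is 1.76-fold higher in blood, with a limma p of 0.0177 and an adjusted p of 0.269. NDUFB4 did not overlap either, at 11.07 to 11.54 in the endometrium and 11.63 to 12.04 in blood, with a ratio of -0.59 ± 0.23 (limma p 0.0449, adjusted p 0.318). NDUFA10 was lower in the endometrium of each animal, by ratios of -0.88, -0.33, -0.63 and -0.37 (mean -0.55 ± 0.22, limma p 0.0484, adjusted p 0.325), while its levels overlapped.

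Over the whole group, levels that did not overlap between the tissues were found for 2 genes higher in the endometrium, ATP5I and ATP5J (2.67%, where 2.41% of all probes were such). They were found for 5 genes higher in blood, NDUFA1, NDUFA9, NDUFB4, UQCRFS1 and COX8 (6.67%, where 3.03% of all probes were such). Several of these gaps were narrow. For ATP5J the lowest endometrial level was 12.32 and the highest blood level 12.31. The highest endometrial and lowest blood levels were 13.61 and 13.63 for NDUFA1 and 11.20 and 11.26 for COX8. They were 11.09 and 11.16 for UQCRFS1 and 11.54 and 11.63 for NDUFB4. Between the 2 arrays of an animal the ratio differed by a median of 0.10.

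**Figure D3:**
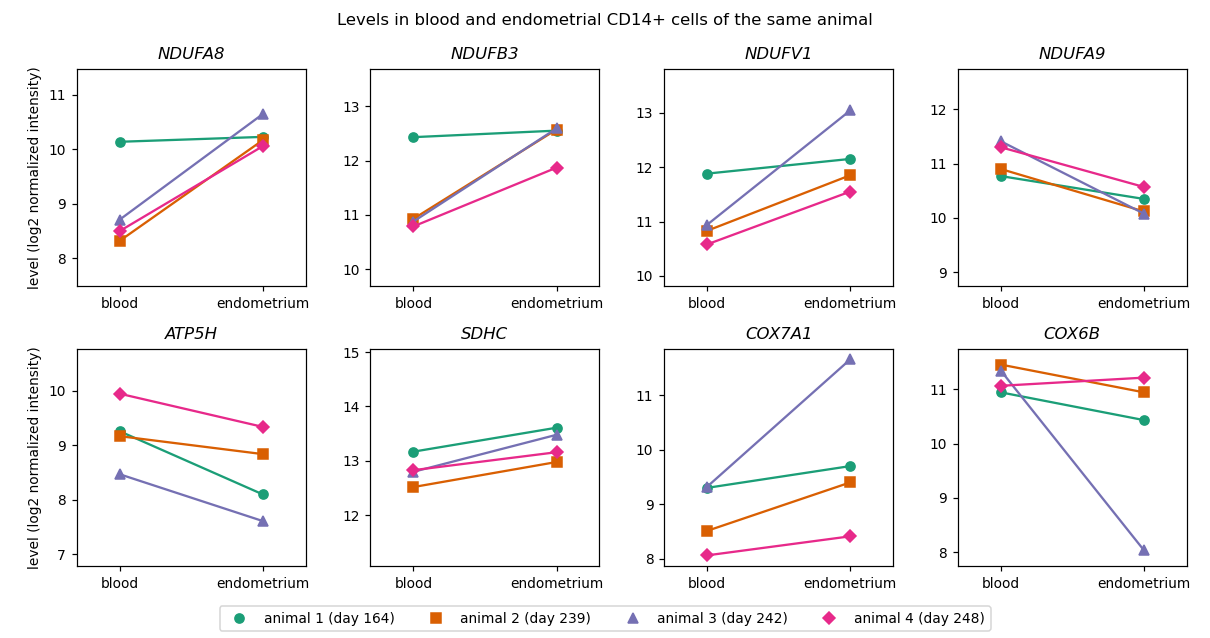
Level (vertical axis, log2 normalized intensity, with axes of at least 4 log2 units) in blood and endometrial CD14+ cells for 8 genes, with a line joining both tissues of each of the 4 animals. NDUFA8, NDUFB3 and NDUFV1 show animal 1 high in blood, NDUFA9 and ATP5H are lower in the endometrium of each animal, and COX6B is low in the endometrium of animal 3 at 8.04.

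The highest blood level in animal 1, seen for NDUFA8 and NDUFB3, was found for many genes inside and outside the group. Blood was highest in animal 1 for 22 of 34 genes of complex I (64.7%), among them 6 of the 7 core subunits, and for 4 of 4 of complex II. This was so for 1 of 14 of complex IV (7.14%), 36 of all 75 genes (48.0%) and 30.6% of all probes. The lists set beside the group differed in this. It was so for 12 of 19 glycolysis genes (63.2%) and 7 of 8 subunit genes under names outside the rule (87.5%). It was so for 10 of 21 assembly factors (47.6%), 5 of 11 carriers (45.5%) and 5 of 16 genes around the citric acid cycle (31.2%). The share was lower for mitochondrial ribosomal proteins (17 of 71, 23.9%), biogenesis regulators (2 of 11, 18.2%) and cytosolic ribosomal proteins (1 of 72, 1.39%). In the endometrium, animal 1 was highest for 18 of 75 genes (24.0%) and 18.9% of all probes, but for 4 of the 7 core subunits of complex I (57.1%) and 3 of 4 genes of complex II (75.0%), so in those sets it was often the highest in both tissues. Animal 1 was at day 164, the other animals were at days 239 to 248, and day and animal cannot be told apart. Both tissues of an animal shared its 2 arrays, so for levels the animal and its arrays cannot be told apart either. Of 4 granulocyte genes, CSF3R and S100A9 had ratios of -4.81 and -4.55 in animal 1 and of -0.19 to 0.48 in the others. S100A8 was at -4.18 in animal 1 and -3.87 in animal 2, and MPO at -0.30 in animal 1. The median ratio of the 4 granulocyte genes was -4.37, -0.26, 0.7 and -0.08 in animals 1 to 4. The 7 monocyte and macrophage genes and the 6 stromal genes were all highest in animal 1, in blood and in the endometrium alike. The part of these cells in the levels of animal 1 was not tested.

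All 4 genes of complex II were measured. The complex joins the respiratory chain to the citric acid cycle, and its median ratio of 0.47 (0.18, 0.52, 0.75 and 0.03 in animals 1 to 4) was the highest among the complexes. None of the 4 reached an unadjusted p of 0.05. SDHC, a membrane anchor, had a level of 13.61, 12.98, 13.48 and 13.16 in the endometrium and 13.17, 12.52, 12.80 and 12.83 in blood. The endometrium was higher in 4 of 4 animals by similar amounts, at 0.48 ± 0.20 (95% interval -0.03 to 0.99; limma p 0.0609, adjusted p 0.344).

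SDHD, the other membrane anchor, had ratios of -0.09, 1.01, 1.44 and 0.05 (mean 0.60 ± 0.34, adjusted p 0.440). SDHA, the flavoprotein that oxidizes succinate, had 0.65, 0.58, 0.82 and -0.23 (mean 0.46 ± 0.26, adjusted p 0.447). SDHB, the iron-sulfur subunit, had -0.47, 0.29, 0.14 and 0.02, with a mean that rounds to 0 and a 95% interval of -0.59 to 0.58. SDHC was thus the only gene of the complex with ratios of one sign in all 4 animals (1 of 4, 25.0%). Of all probes, 10.2% were higher in the endometrium in 4 of 4 animals and 14.7% higher in blood.

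Complex III had 6 genes and a median of -0.01 (-0.31, 0.26, 0.03 and 0.05 in animals 1 to 4), with 3 genes on either side of 0. UQCRFS1, the Rieske iron-sulfur protein, had the lowest ratio, at -0.59 ± 0.26 (limma p 0.0676, adjusted p 0.355). Its level was 10.86, 11.01, 11.03 and 11.09 in the endometrium and 11.44, 11.54, 12.20 and 11.16 in blood, without overlap. The highest was UQCR, now named UQCR11, a small subunit of the complex, at 0.46 ± 0.24 (adjusted p 0.414).

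Complex IV was the only complex with more genes below 0 than above, 10 against 4, and had a median of -0.16 (-0.24, -0.20, -0.30 and 0.11 in animals 1 to 4), which was -0.02 without animal 3. No gene reached an unadjusted p of 0.05. Several subunits exist as isoforms known from particular tissues, given here in turn. COX7A1, the isoform of heart and skeletal muscle, had a level of 9.70, 9.40, 11.66 and 8.41 in the endometrium and 9.30, 8.51, 9.32 and 8.06 in blood. The endometrium was higher in 4 of 4 animals, most in animal 3, with a log2 ratio of 1.00 ± 0.40 (limma p 0.0502, adjusted p 0.329), which was 0.55 without animal 3. COX7A2, the widely expressed isoform, had ratios of -0.37, 0.31, -0.25 and 0.06, with a mean of -0.06 ± 0.23.

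COX6B, now COX6B1, faces the intermembrane space and had the lowest mean ratio of all 75 genes, at -1.04 ± 0.60. Its level in the endometrium was 10.43, 10.94, 8.04 and 11.21, and in blood 10.94, 11.45, 11.34 and 11.06. The ratio of animal 3 was -3.38 and -3.21 on its 2 arrays. The endometrium carried Cy5 on both, so a dye effect would repeat on both. Without animal 3 the mean ratio was -0.29. The adjusted p was 0.451. COX6B2, described as an isoform of testis, had the opposite sign in animal 3, with ratios of -0.74, -1.11, 0.71 and -0.00 (mean -0.29 ± 0.36).

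COX4, now COX4I1, the ubiquitous isoform of subunit 4, had a mean of -0.17 ± 0.24. COX6A2, the muscle isoform of subunit 6a, was dim, with a level of 6.14 to 6.47 in the endometrium and 6.35 to 6.90 in blood (mean ratio -0.16 ± 0.23, but -0.79 with the authors' value table and -0.81 with processed signals). The probe named COX8 had ratios of -0.65, -0.51, -1.89 and -0.08 (mean -0.78 ± 0.35, limma p 0.0709, adjusted p 0.361), and its levels did not overlap. Without animal 3 the mean was -0.41. Its accession belongs to COX8A in the reference table while the array describes a heart protein, so the isoform is uncertain.

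NDUFA4 was long counted in complex I and is a subunit of complex IV. Its ratios were 1.72, 1.07, -0.03 and 0.15 (mean 0.73 ± 0.36, adjusted p 0.393), so the difference lay mainly in animals 1 and 2. NDUFA4L2, its relative known to rise in low oxygen, was well above background in 7 of 8 endometrial and 6 of 8 blood channels. Its level in the endometrium was 6.10, 6.13, 6.36 and 7.47, with animal 4 above the others, and in blood 6.18 to 6.25 (mean ratio 0.29 ± 0.32, adjusted p 0.693; 0.67 with the authors' value table and with processed signals).

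Complex V had a median of 0.07 over 15 genes (-0.08, 0.50, -0.30 and 0.00 in animals 1 to 4), with 10 above 0 and 5 below. The 5 genes of the F1 head, which holds the catalytic sites, had ratios of -0.32 to 0.46, and the 10 others -0.74 to 0.75. ATP5H, now ATP5PD, encodes subunit d of the peripheral stalk and was the only gene of the complex at an unadjusted p of 0.05. Its level was 8.10, 8.84, 7.61 and 9.34 in the endometrium and 9.26, 9.17, 8.47 and 9.95 in blood. Blood was the higher in each animal, although the levels of different animals overlapped, with a log2 ratio of -0.74 ± 0.24 (95% interval -1.33 to -0.15), or 1.67-fold, a limma p of 0.0233 and an adjusted p of 0.275.

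ATP5I, now ATP5ME, encodes subunit e, at which ATP synthase dimers form. Its level was 13.75, 13.70, 14.13 and 13.59 in the endometrium and 13.43, 13.26, 12.28 and 13.21 in blood. The groups did not overlap, and animal 3 set the size, since the ratio of 0.75 ± 0.34 (adjusted p 0.362) was 0.38 without it. ATP5J, now ATP5PF, encodes a protein of the peripheral stalk. It differed by less, at 0.24 ± 0.20 (adjusted p 0.603), with ratios of 0.19, 0.18, 0.44 and 0.15.

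The genes ATP5G1, ATP5G2 and ATP5G3 encode the same mature subunit c of the membrane ring with different targeting peptides. Their mean ratios were 0.29 ± 0.25, 0.06 ± 0.33 and -0.08 ± 0.28, and none had one sign in all animals. ATP5G2 was at 13.94 in the endometrium of animal 2, as against 13.05 to 13.15 in the others.

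Of the 2 proteins that are not counted as subunits, ATP5S, now DMAC2L, had a ratio of one sign. Its level was 7.55, 7.75, 6.02 and 7.04 in the endometrium, where 6 of 8 channels were well above background, and 8.28, 8.38, 7.55 and 7.84 in blood. Blood was higher by 0.92 on the log2 scale (ratio -0.92 ± 0.25, 95% interval -1.55 to -0.30), or 1.89-fold, with a limma p of 0.0121, the lowest among the 75 genes, and an adjusted p of 0.262. With the authors' value table the ratio was -1.98, and with processed signals -2.0. COX7A2L, which takes part in the joining of complexes III and IV, had ratios of -0.67, 0.75, -0.80 and -0.23 (adjusted p 0.772).

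**Figure D4:**
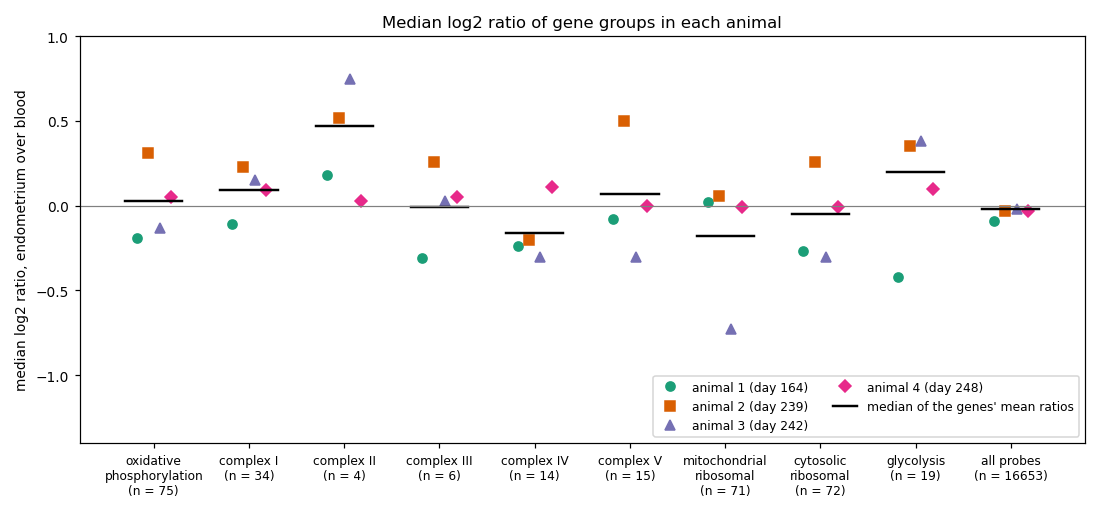
Median log2 ratio of endometrium over blood (vertical axis) in each of the 4 animals (symbols) for the oxidative phosphorylation genes, each complex, 3 lists set beside them and all probes, with a black line for the median of the genes' mean ratios. Complex II lies above 0 in all 4 animals, from 0.03 to 0.75, and the medians of the other complexes and of the lists take both signs.

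Other genes of the pathway were read from lists, and their counts of called genes stand beside 0.0661% of all probes. For the subunits encoded in mitochondrial DNA, 0 probes were found by name, and they were not analysed here. A further 8 subunit genes stood on the array under names outside the rule (NDUFA11, NDUFA12, NDUFA13, UQCR10, UQCRQ, COX4I2, COX8B and CYC1). Their median ratio was 0.12, and 0 of 8 were called. NDUFA13, singled out after its values were seen, had ratios of 1.04, 1.58, 1.59 and 0.66 (mean 1.22 ± 0.26, limma p 0.00429, adjusted p 0.262). COX4I2, the isoform of subunit 4 known from lung and from low oxygen, was at 6.23 to 6.96 in the endometrium and 6.21 to 6.47 in blood. COX8B, a muscle isoform, had a ratio of 0.12 ± 0.29.

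Assembly factors build the complexes but do not remain in them. The SD of their mean ratios over genes was 0.77, as over all probes, and 0.48 over the 75 subunit genes. Of the 21 tested, 0 were called. At an unadjusted p of at most 0.05, 3 were higher in the endometrium and 4 in blood (33.3% in all, where 15.2% of all probes were at that level), and the median was 0.02. COA3, which takes part in making COX1 for complex IV and was singled out after its values were seen, had ratios of 1.58, 2.08, 2.84 and 0.97 (mean 1.87, limma p 0.00259, adjusted p 0.252). COX15 and COX10, of the synthesis of heme for complex IV, had means of -1.0 and -0.96, each below 0 in 4 of 4 animals, and TTC19 of complex III had -1.56. These genes were also picked from the list after their values were seen. Of the 21 factors, 3 were below 0 in 4 of 4 animals (14.3%), near the 14.7% of all probes. Among 11 carriers of electrons, ADP, ATP and phosphate, 0 were called and the median was -0.39. There VDAC1 was at 0.79 and VDAC2, another channel of the outer membrane, at -0.90, each with an unadjusted p of at most 0.05, at adjusted p of 0.327 and 0.270 by limma.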

How the data were processed

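The authors scanned 8 arrays and deposited, per the file headers, Feature Extraction output (version 10.5.1.1; 9.5 per the submitters' processing notes) with spot intensity and flags, and a value table of log2 values normalized by the authors. By rank correlation, each of the 16 columns of that table fitted best (at least 0.99976) a file that GEO attaches to the animal's other array, in the labelled dye, so files were exchanged between the arrays of an animal. Median intensity was background-corrected by normexp (offset 50), loess normalized within arrays with controls and outliers at weight 0, and quantile normalized over 16 channels, and the spots of a probe were averaged. Probes entered the test where one tissue had 4 or more of its 8 channels well above background. The log2 ratio of an animal is the mean of its 2 arrays, and the level is the channel's log2 normalized intensity. limma 3.58.1 (R 4.3.3; lmFit, eBayes) tested the ratio against 0 over 4 animals, with Benjamini-Hochberg adjustment over 16653 probes; called means a fold over 2 at an adjusted p not above 0.05. Each ± value and interval uses the SE of limma, in which a probe's spread is moderated by that of all tested probes. It can thus lie below or above the SE of the 4 animals alone. The pipeline was tested on simulated data. PAG1 was left out of the trophoblast list, since the array's probe of that name describes a phosphoprotein. The samples were paired by animal, and deviations from the tissue means correlated at 0.618, 0.364, 0.209 and 0.465 in animals 1 to 4. Both tissues of an animal shared its arrays, so these correlations cannot separate a pairing by animal from one by array.

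Gene names are those of the array; 75 of 75 matched the reference table (ARS-UCD2.0), where 20 have another symbol. The members and lists were chosen with earlier results of these data known. Genes named in the text are the highest and lowest of each complex, the 10 with the lowest p, and a set of isoforms. Genes without overlap, NDUFS1 and NDUFV2 were added after their values were seen. COX6A1 and COX8C were not analysed here. Alternatives were the value table, processed signals, no background subtraction, loess only, other filters, each slide, no block, a dye term, the methods' analysis of variance, the files as attached and each animal left out.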

Additional observations from a re-analysis of the deposited data

Results flagged for a closer look

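In groups of 4 animals, 117 sets of values of the named genes and medians were checked for an animal far from the rest by the size of its gap. By chance about 1 in 20 would stand out, and 11 did. The highest of its group was animal 3 for the log2 ratio of ATP5I (1.85) and of ATP5J (0.44) and for the endometrial level of COX4I2 (6.96), and animal 2 for the endometrial level of ATP5G2 (13.94) and the blood levels of COX6A2 (6.90) and NDUFA1 (13.96). Animal 1 stood apart in blood, as the highest for NDUFB3 (12.43) and as the lowest for NDUFA4 (11.36). Animal 4 was the lowest for the blood level of COX7A2 (13.10) and for the endometrial levels of NDUFB3 (11.87) and COA3 (13.10).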

How the results depend on the processing

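No subunit gene was called under any alternative but 1: in the fit with a dye term 1 gene was called, NDUFA8 (log2 ratio 1.39), where 4.76% of all probes were. That fit gave 8 genes at an unadjusted p of at most 0.05 higher in the endometrium. That count was 1 with the value table, 1 with processed signals, 0 with the files as attached, and 0 to 4 with 1 animal left out (0, 1 and 2 without animals 2, 3 and 4). Higher in blood, the count was 1 with the value table, 1 with processed signals, 3 without background subtraction, 3 with loess only, 2 with probes above background in all channels, 0 with the files as attached, 3 with no replicate block, and 1 to 3 with 1 animal left out (3, 2, 2 and 1 without animals 1 to 4). No subunit gene was called with or without the replicate block. The median of complex II was 0.02 with the files as attached, and the other medians stayed within the SD between animals, although that of complex IV was -0.02 without animal 3. Over all probes, where 11 were called, 224 were called with the value table, 171 with processed signals and 792 in the fit with a dye term. With no replicate block 4 were called, with the methods' analysis of variance 0, and with any 1 animal left out 0. All probes had a median of -0.139 in the value table and -0.129 with processed signals, where the 75 genes had 0.06 and 0.04.

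Of 37 named genes, 30 kept their direction under each alternative run for single genes, which left out the files as attached. COA3, an assembly factor, was called in the fit with a dye term (1.75). With 1 animal left out, ATP5G2 ranged from -0.29 to 0.23, ATP5G3 from -0.22 to 0.17, COX7A2 from -0.19 to 0.04, NDUFA4L2 from -0.04 to 0.44, SDHB from -0.10 to 0.15, COX4I2 from -0.12 to 0.21 and COX8B from -0.13 to 0.28. On slide 1 alone ATP5G3 was 0.13 and COX7A2 0.04. SDHB was 0.09 with loess only and 0.11 on slide 2 alone, and COX8B was -0.03 with processed signals. The cause was not tested. The mean over all probes of a gene was not run, since each gene had 1 probe. Signal over background limits NDUFA4L2, COX6A2, ATP5J2, ATP5S and COX4I2.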

Other observations

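The pathways around oxidative phosphorylation held no called gene either, where only 0.0661% of all probes were called, so lists of this size would rarely hold one. Among 16 genes of the citric acid cycle and pyruvate dehydrogenase, 0 were called and the median log2 ratio was 0.06. PDHB and PDHA1, of pyruvate dehydrogenase, were at -1.03 and -0.77, and IDH3G and SUCLG1, of the cycle, at 1.03 and 0.75, all with an unadjusted p of at most 0.05 by limma and adjusted p of 0.262, 0.291, 0.279 and 0.297. These 4 were the genes of the list at that level (25.0%, where 15.2% of all probes were).

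Of 19 glycolysis genes 0 were called, with a median of 0.20 (-0.42, 0.35, 0.38 and 0.10 in animals 1 to 4). TPI1 was at 0.85, PKM at -0.87 and LDHA, which makes lactate, at -0.94, and these 3 were at an unadjusted p of at most 0.05 (15.8%, near the 15.2% of all probes). For 11 regulators of mitochondrial biogenesis the median was -0.53 (-0.34, 0.01, -1.35 and -0.49), and 0 were called. GABPB1 at -1.27 and YY1 at -0.71 were at an unadjusted p of at most 0.05 (18.2%), while TFAM, which packs and transcribes mitochondrial DNA, was at -1.30 with ratios of -0.52, -0.90, -3.50 and -0.26.

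The 71 mitochondrial ribosomal proteins had a median of -0.18 (0.02, 0.06, -0.73 and -0.01) and, at an unadjusted p of at most 0.05, 3 were higher in the endometrium (4.23%) and 2 in blood (2.82%), below the 6.58% and 8.64% of all probes. The 72 cytosolic ones had a median of -0.05 (-0.27, 0.26, -0.30 and -0.01) with 0 higher in the endometrium and 1 in blood. None of either list was called.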
